A study of Arabidopsis thaliana with 6 samples.

Results

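The untagged control of a ChIP-seq study (chromatin immunoprecipitation followed by sequencing) of the clock protein PRR7 in Arabidopsis thaliana is described here. It is the anti-HA immunoprecipitate (IP) of prr7-3 seedlings in experiment 1, which hold no HA tag, and it is set against the anti-HA IP of HA-PRR7 seedlings of the same experiment. Its members are all 143 enriched regions deposited for that prr7-3 IP, taken by the list they stand in and not by a measured value. The HA-PRR7 list of experiment 1 holds 685 regions, and the 4 deposited lists hold 1563 in all.

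Both lines carry the prr7-3 mutation in PRR7 and were sampled as whole seedlings aged 15 days, grown on 0.8% agar with 2% sucrose, in cycles of 12 h of light at 70 µmol m-2 s-1 and 12 h of darkness. The labels name no transgene for the prr7-3 seedlings. The HA-PRR7 seedlings are line 151, 1 transgenic line in which the PRR7 promoter drives HA-PRR7 in the prr7-3 mutant. Each side is 1 IP, so there is no replicate check and no p-value, and counts and medians describe these libraries. Intervals on shares are exact Clopper-Pearson intervals (95%) and cover counting error only.

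PRR7 is a pseudo-response regulator, a member of a small family of repressors in the plant circadian clock that act one after another through the day and hold down morning genes such as CCA1 and LHY. In ChIP of a tagged protein, the untagged plant shows what the antibody, the beads and the sequencing return when there is no tagged protein to capture. Repeats near centromeres and organelle DNA are common among such regions, because many copies in the cell can map to few positions in the reference.

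Untagged regions lay inside genes, with few exceptions outside the gene-poor middle of the chromosomes. Of the 143, 135 were nuclear and 8 mitochondrial, and no region of either experiment 1 list lay on the plastid sequence. The maximum of the IP signal fell inside an annotated gene in 119 of 135 nuclear prr7-3 regions (88.1%, interval 81.5% to 93.1%), against 513 of 660 in HA-PRR7 (77.7%, interval 74.4% to 80.8%). Annotated genes cover 64.1% of the nuclear bases in the gene table. Both lists were above that level, prr7-3 further than HA-PRR7. With 1 IP per side, the intervals do not measure the spread between IPs. By chromosome the prr7-3 regions numbered 33, 12, 35, 24 and 31 on chromosomes 1 to 5. In the same order the chromosomes make up 25.5%, 16.5%, 19.7%, 15.6% and 22.6% of the nuclear bases. Chromosome 2 held 8.89% of the prr7-3 regions (interval 4.68% to 15.0%), against 15.2% in HA-PRR7 (interval 12.5% to 18.1%).

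The lists differed in the space beside genes, where promoters lie. Of 135 prr7-3 maxima, 1 lay outside any gene but no more than 1000 bp from a protein-coding one (0.741%, interval 0.0188% to 4.06%), against 86 of 660 in HA-PRR7 (13.03%, interval 10.6% to 15.8%). That 1 region, on chromosome 4 at 258687 to 258821 (positions throughout are the files' own, on TAIR10), lay 239 bp from the nearest protein-coding gene and had a fold enrichment of 10.01 with 15 IP tags, the median of its list. Farther from genes lay 15 of 135 in prr7-3 (11.1%, interval 6.35% to 17.7%) and 61 of 660 in HA-PRR7 (9.24%, interval 7.14% to 11.7%). These near-equal shares take in the centromere flanks defined below, where 13 prr7-3 and 16 HA-PRR7 regions lay between genes. Outside the flanks, 3 of 135 prr7-3 regions (2.22%) and 131 of 660 HA-PRR7 regions (19.8%) lay between genes at any distance. In experiment 2, whose prr7-3 IP was not analysed here, 46.2% of nuclear HA-PRR7 maxima in list KC and 45.6% in list TL (2 lists of 1 sample) lay between genes and near a protein-coding gene in this sense.

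**Figure D1:**
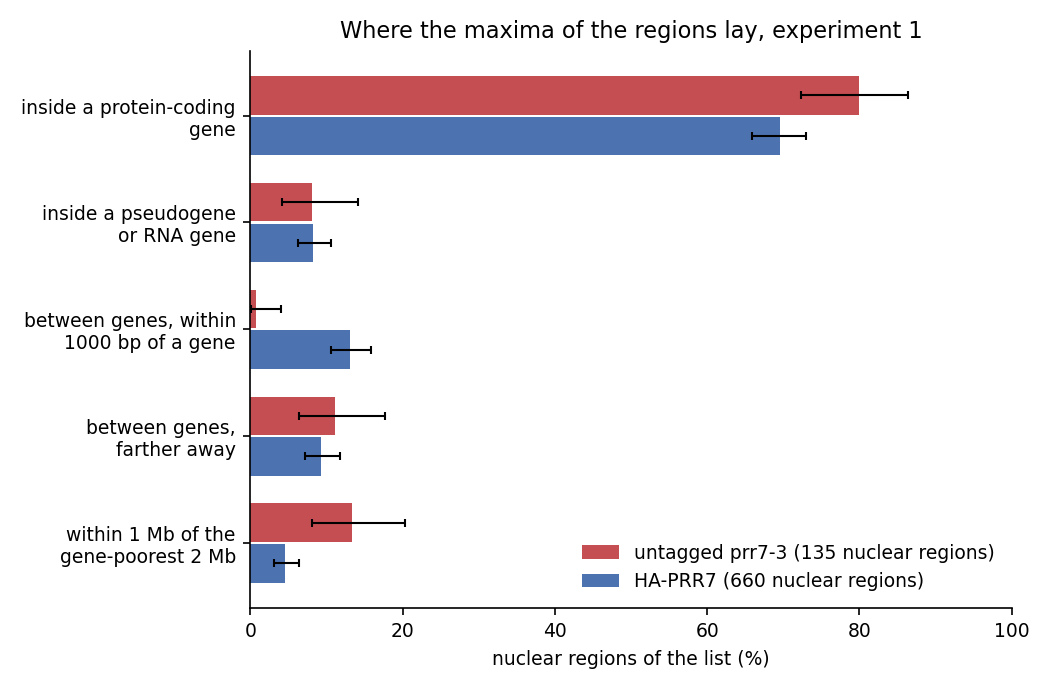
Share of nuclear regions (x axis, %) whose maximum lay in each place (y axis), for untagged prr7-3 (135 regions) above HA-PRR7 (660 regions), both of experiment 1; bars start at 0 and lines are exact 95% intervals for counting error. The prr7-3 bar is the longer one inside protein-coding genes (80% against 69.5%) and inside the gene-poorest 2 Mb (13.3% against 4.55%). It is the shorter one beside genes (0.741% against 13.03%). The last pair of bars counts regions within 1 Mb of the centre of that 2 Mb window, which also appear in the pairs above.

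Outside the centromere flanks nearly every untagged region was in a gene body. A flank is here 1 Mb on either side of the centre of each chromosome's 2 Mb window with the fewest protein-coding genes. Gene-poor and gene-poorest are meant in this sense throughout. Beyond the flanks, 114 of 117 prr7-3 maxima were inside a gene (97.4%, interval 92.7% to 99.5%), against 499 of 630 in HA-PRR7 (79.2%, interval 75.8% to 82.3%). The 3 exceptions were the chromosome 4 region above, a region on chromosome 3 at 22789271 to 22789396 (10.3-fold), 1364 bp from a protein-coding gene, and a region on chromosome 2 at 2724875 to 2724992 (5.72-fold), 19454 bp from one. HA-PRR7 had 131 such regions between genes.

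Inside protein-coding genes, untagged maxima lay farther from the gene ends than HA-PRR7 maxima did. The median distance to the nearer end of the gene was 712.5 bp over 108 prr7-3 maxima and 559 bp over 459 HA-PRR7 maxima. Within 250 bp of an end lay 12 of 108 in prr7-3 (11.1%) and 90 of 459 in HA-PRR7 (19.6%). In experiment 2 the median was 155.5 bp in KC and 152 bp in TL. The gene table gives no strand, so a start cannot be told from an end. The genes themselves were of like length in both lists, with a median of 2738.5 bp over 112 protein-coding genes in prr7-3 and 2664 bp over 458 in HA-PRR7. All protein-coding genes have a median of 2078 bp, or 2912 bp when each gene is weighted by its length, which is the median that bases drawn evenly from genes would give.

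Untagged regions were spread over different genes, with no gene holding more than 1. The 119 maxima inside genes fell in 124 genes, because 5 maxima lay where 2 genes overlap. That is 0.327% of the 37899 annotated nuclear genes, against 527 genes or 1.39% for HA-PRR7, where 12 genes held more than 1 maximum. Protein-coding genes made up 112 of the 124 (0.408% of 27444, against 1.67% for HA-PRR7). A further 11 were pseudogenes (0.227% of 4843, against 0.764% for HA-PRR7), and 1 was AT3G06365, annotated as a miscellaneous RNA. In experiment 2, KC and TL held maxima in 0.388% and 0.372% of all genes, 0.434% and 0.419% of protein-coding genes, and 0.0206% of pseudogenes each. None of 3480 long non-coding RNA genes held an untagged maximum, whereas 26 (0.747%) held one of HA-PRR7.

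The highest untagged regions by fold were gene-body regions with 14 to 21 IP tags, where the list's median is 15. AT1G73160 held the highest, on chromosome 1 at 27506795 to 27506946, with an IP signal of 13.8 over a control signal of 0.365, a 13.8-fold enrichment and 19 IP tags. AT3G23540 followed, with an IP signal of 14.4 over a control of 1.13 (12.8-fold). Next was ESR1, a transcription factor gene of shoot regeneration also called DORNROSCHEN, with 12.8-fold enrichment and 16 tags. All of the first 10 lay inside protein-coding genes. After ESR1 came the overlapping pair AT4G17243 and AT4G17245 (12.7-fold), AT1G53440 (12.5-fold), AT4G25780 (12.4-fold), EXO70F1, an exocyst subunit of secretion (12.1-fold), AT1G70620 and AT3G28770 (11.9-fold each) and AT3G52100 (11.8-fold). The 5 lowest regions by fold were all in flanks or on the mitochondrial sequence.

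Genes of known role with an untagged maximum came from many parts of cell biology. The groups were made by hand from gene symbols and synonyms after the values were seen. They cover 40 of the 124 genes, with a median fold of 8.61 beside 9.12 over all 124. The number of such genes in the whole genome was not counted, so group sizes are not read against the background. Transcription and chromatin genes numbered 9, with folds from 5.29 to 12.8. They included HAF01, a histone acetyltransferase gene of the TAF1 type (8.09-fold, 22 IP tags), GTE7, a bromodomain gene (6.66-fold, 19 tags), NRB4, a Mediator subunit of salicylic acid signalling (6.44-fold, 19 tags), and NAC089 (7.56-fold, 12 tags). Metabolic genes numbered 13, from 5.27- to 10.7-fold, among them PUR2 of purine synthesis (10.7-fold), BAM4, a beta-amylase gene (8.43-fold), FBA5, a fructose-bisphosphate aldolase gene (7.01-fold), and GSH1, the first step of glutathione synthesis (5.63-fold).

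The other groups were smaller. Transport held 5 genes: the ATP-binding cassette genes ABCG38 (10.3-fold), ABCG21 (9.197-fold) and ABCB15 (5.38-fold), the cation exchanger gene CHX26 (10.1-fold) and the sugar transporter gene STP2 (9.21-fold). Defence and signalling held PAD4, a regulator of salicylic acid defence (10.9-fold), KAPP, a receptor kinase phosphatase gene (9.43-fold), AFB4, an auxin receptor gene (8.94-fold), and PBL1, a receptor-like cytoplasmic kinase gene (8.02-fold). Cell division held RBR1, the retinoblastoma-related repressor (7.998-fold), CDT1B of replication licensing (6.71-fold) and AT1G61030, also named WAPL2, a cohesin release factor (6.65-fold). Secretion and the cytoskeleton held EXO70F1, ERMO2, a coat protein gene of vesicle export from the endoplasmic reticulum (5.72-fold), and SCAR2, an actin regulator gene (9.40-fold). RNA and translation held MEF1, an organelle RNA editing factor (10.8-fold), AHG2, a poly(A) ribonuclease gene (10.3-fold), and RPL18AA, named as a ribosomal protein gene, with the lowest fold of the 40 (4.29-fold).

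Lists of genes by name are read against the 0.408% of protein-coding genes with an untagged maximum and the 1.67% with one of HA-PRR7. PRR7 was the 1 of 28 core clock genes with an untagged maximum, where HA-PRR7 of experiment 1 had 5 of 28. None of 10 housekeeping genes held a maximum in either list. By key words in the gene table, which names only part of each family, kinases had 1 of 517 in prr7-3 (KAPP, itself a phosphatase gene) and 11 in HA-PRR7, transcription factors 5 of 520 and 11, and transporters 5 of 442 and 14. Pentatricopeptide repeat genes had 1 of 21 (MEF1) and 0, F-box genes 1 of 29 (AFB4) and 1, and ribosomal protein genes 1 of 67 (RPL18AA) and 0. Cytochrome P450 genes had 0 of 227 and 4, zinc finger genes 0 of 56 and 2, heat shock genes 0 of 52 and 3, and disease resistance genes 0 of 10 in both. The 1 gene named as a transposable element, 625 tRNA genes and 4 rRNA genes held none in either list. Over all annotated genes the shares were 0.327% in prr7-3 and 1.39% in HA-PRR7.

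IP signals of both lists were packed close to the lowest accepted value, and those of prr7-3 somewhat closer. The fields are the deposited ones and were used as the authors' own: the IP signal and control signal at the maximum, a fold enrichment that divides the first by the second, with controls under 1 counted as 1 (within 1% in 143 of 143 and 685 of 685 regions), and tags in each library. The lowest IP signal was 10 in both lists, to the nearest whole number. The median was 10.9 in prr7-3 (quartiles 10.4 and 11.9) and 11.6 in HA-PRR7 (10.7 and 12.9). Under 12 lay 109 of 143 prr7-3 regions (76.2%, interval 68.4% to 82.9%), against 410 of 685 HA-PRR7 regions (59.9%, interval 56.1% to 63.5%). At higher limits the lists were nearer each other. Under 14 lay 88.8% of prr7-3 and 84.5% of HA-PRR7 regions, and under 20 lay 97.2% and 95.8%.

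Control signal differed in the other direction. Its median was 1.38 in prr7-3 (quartiles 0.975 and 1.91) and 1.07 in HA-PRR7 (0.659 and 1.58). It was below 1, where the fold no longer depends on it, in 37 of 143 prr7-3 regions (25.9%) and 316 of 685 HA-PRR7 regions (46.1%). With a lower IP signal over a higher control, the median fold was 8.02 in prr7-3 (range 2.68 to 13.8) and 10.2 in HA-PRR7 (range 2.51 to 33.5). In HA-PRR7, 44 of 685 regions (6.42%, interval 4.71% to 8.53%) had a fold above the highest of prr7-3. The deposited -log10 q ran the other way from the fold, with a median of 5.98 in prr7-3 and 4.49 in HA-PRR7. It was under 1.3 in 62 of 685 HA-PRR7 regions (9.05%) and in 0 of 143 prr7-3 regions. The part of library depth in this was not tested.

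**Figure D2:**
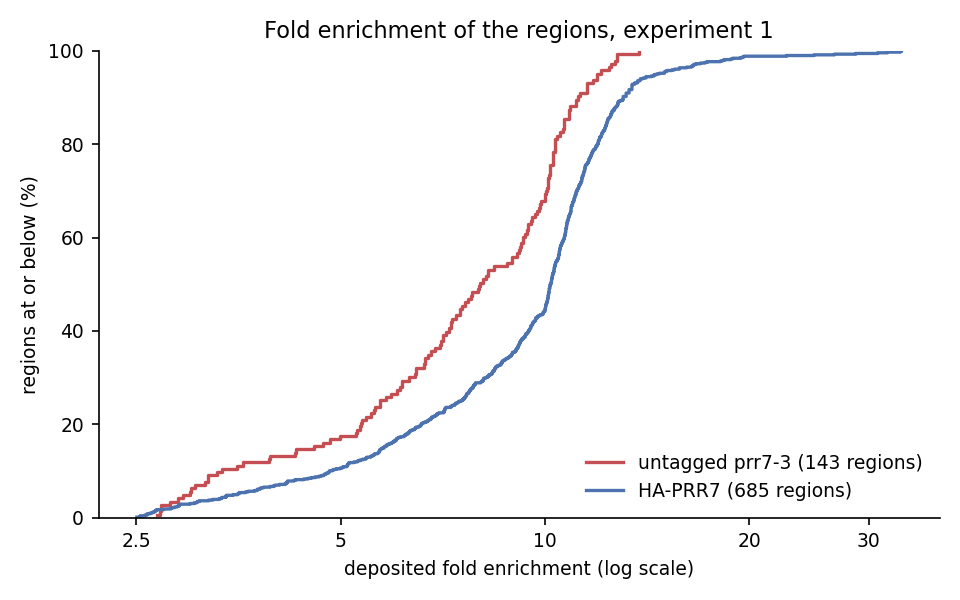
Cumulative share of regions (y axis, %) at or below each deposited fold enrichment (x axis, log scale) for untagged prr7-3 (143 regions) and HA-PRR7 (685 regions) of experiment 1. The prr7-3 curve lies to the left over most of its course (median 8.02 against 10.2) and ends at 13.8, while HA-PRR7 runs on to 33.5.

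Tag counts ran the opposite way to the signal, and the libraries differ in depth. The median prr7-3 region had 15 IP tags (range 11 to 303) and the median HA-PRR7 region 10 (range 6 to 273). Control tags had a median of 24 in prr7-3 and 14 in HA-PRR7. From the deposited tag ratio, a 300 bp stretch of flat background corresponds to 3.61 IP tags and 22.4 control tags in prr7-3, and to 2.31 and 15.4 in HA-PRR7, so tags are not on 1 scale between the lists. The tag ratio itself, which allows for this, had a median of 3.60 in prr7-3 and 3.90 in HA-PRR7. The flat background set the tag ratio in 56 of 143 prr7-3 regions (39.2%) and 420 of 685 HA-PRR7 regions (61.3%).

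Within the untagged list, a high fold went with a low control more than with a high IP. Across the 143 regions, which share 1 IP and 1 control, Spearman's rho was -0.955 between fold and control signal and -0.181 between fold and IP signal. Over the 685 HA-PRR7 regions the values were -0.801 and 0.227. Within gene bodies alone the rho between fold and IP signal turned positive in prr7-3, at 0.165 over 114 regions, against 0.393 over 499 in HA-PRR7. The rho between fold and control signal there was -0.938 in prr7-3 and -0.778 in HA-PRR7. The fold is calculated from both signals, so these values only describe which of them varied. In prr7-3 gene bodies the IP signal ran from 10.01 to 16.3 and the control from 0.132 to 5.40.

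**Figure D3:**
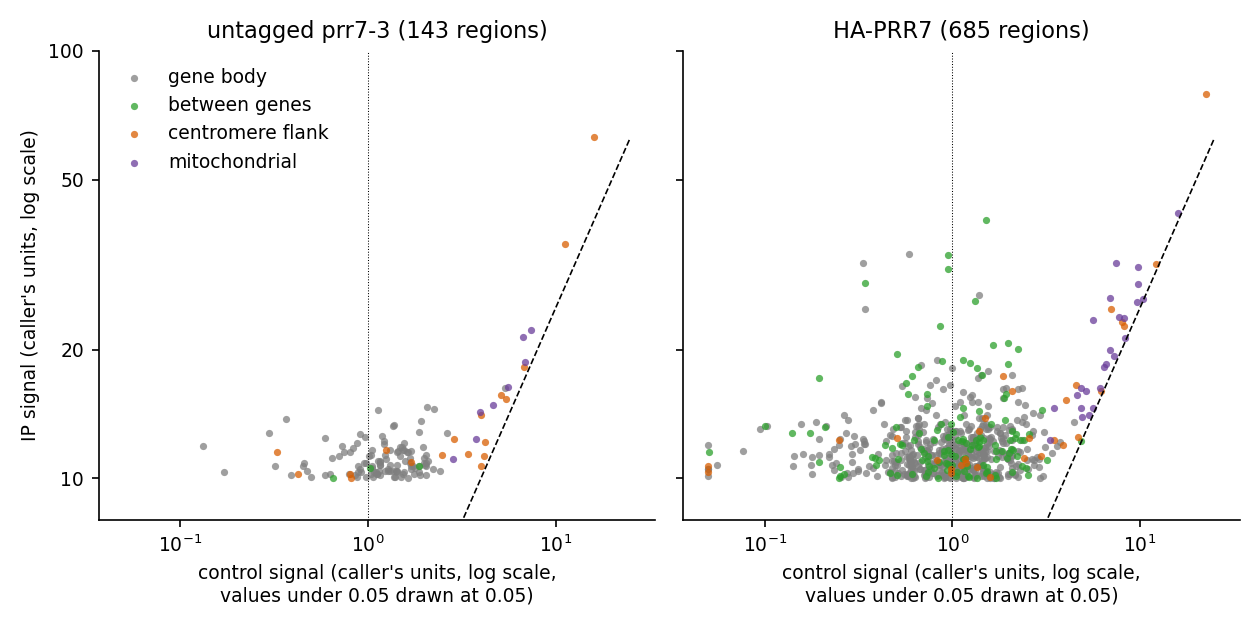
IP signal (y axis) against control signal (x axis), both on log scales in the caller's units, for untagged prr7-3 (left, 143 regions) and HA-PRR7 (right, 685 regions) of experiment 1, coloured by place; the dotted line marks a control of 1 and the dashed line a fold of 2.5. In prr7-3 the gene-body points stay between an IP signal of 10.01 and 16.3 and the high points are flank and mitochondrial regions along the dashed line, while HA-PRR7 also has gene-body and between-gene points with high IP and low control.

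Gene-body regions, compared alone, kept these differences. The median IP signal was 10.8 over 114 prr7-3 regions and 11.4 over 499 HA-PRR7 regions, and the median fold was 8.94 and 10.3. Among HA-PRR7 gene-body regions with at least 11 tags, the fewest in any prr7-3 region, the median IP signal was 12.2 and the median fold 10.6 over 191 regions. In that set 17 of 191 (8.90%) had an IP signal above the highest prr7-3 gene-body value, 16.3 at AT3G06365. That 1 region sets the limit, and it had the highest control signal (5.40) and lowest fold (3.01) of the prr7-3 gene-body regions. The next IP signal among them was 14.7, at AT1G15370.

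The strand fields also differed between the lists. The deposit names them ps and cor without a definition; they are taken here as the shift between the tag profiles of the 2 strands, in bp, and their correlation. Over gene bodies the shift had a median of 47 bp in prr7-3 (quartiles 41.2 and 53) and 43 bp in HA-PRR7 (33 and 57). A shift below 0 or above 100 bp was found in 2 of 114 prr7-3 gene-body regions (1.75%, interval 0.213% to 6.19%) and in 93 of 499 HA-PRR7 ones (18.6%, interval 15.3% to 22.3%). A correlation of at least 0.8 was found in 72 of 114 (63.2%, interval 53.6% to 72%) and 170 of 499 (34.1%, interval 29.9% to 38.4%). With at least 11 tags, HA-PRR7 gave 34 of 191 (17.8%) and 69 of 191 (36.1%). That floor does not match the tags of the lists: over all regions that pass it, the median stayed at 15 IP tags in prr7-3, against 13 in HA-PRR7, and the part of tag number in these shares was not tested. Regions were of like width, with a median of 130.5 bp in prr7-3 gene bodies and 132 bp in those of HA-PRR7, or 177 bp in HA-PRR7 with at least 11 tags.

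Centromere flanks held a larger part of the untagged list. Of 135 nuclear prr7-3 maxima, 18 lay in a flank (13.3%, interval 8.10% to 20.3%), against 30 of 660 in HA-PRR7 (4.55%, interval 3.09% to 6.43%). Flanks make up 8.39% of the nuclear bases. The 18 were spread over all 5 chromosomes, with 1, 3, 4, 5 and 5 on chromosomes 1 to 5, and 13 of them lay between genes. Annotated genes of any kind cover 46.3% of the flank bases, and protein-coding genes 4.78%. The median control signal of the 18 was 3.70, against 1.26 in prr7-3 gene bodies, and their median fold was 3.73 against 8.94.

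In 9 of the 18 untagged flank regions the strand shift was 13 to 21 bp, a range named after the values were seen. It occurred in 1 of the 114 prr7-3 gene-body regions, AT3G06365, which lies 1.20 Mb from the middle of the gene-poorest window of chromosome 3. In HA-PRR7 the same range held 9 of 30 flank regions and 27 of 499 gene-body regions. All 9 untagged flank regions of this kind had a control signal above 2.

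**Figure D4:**
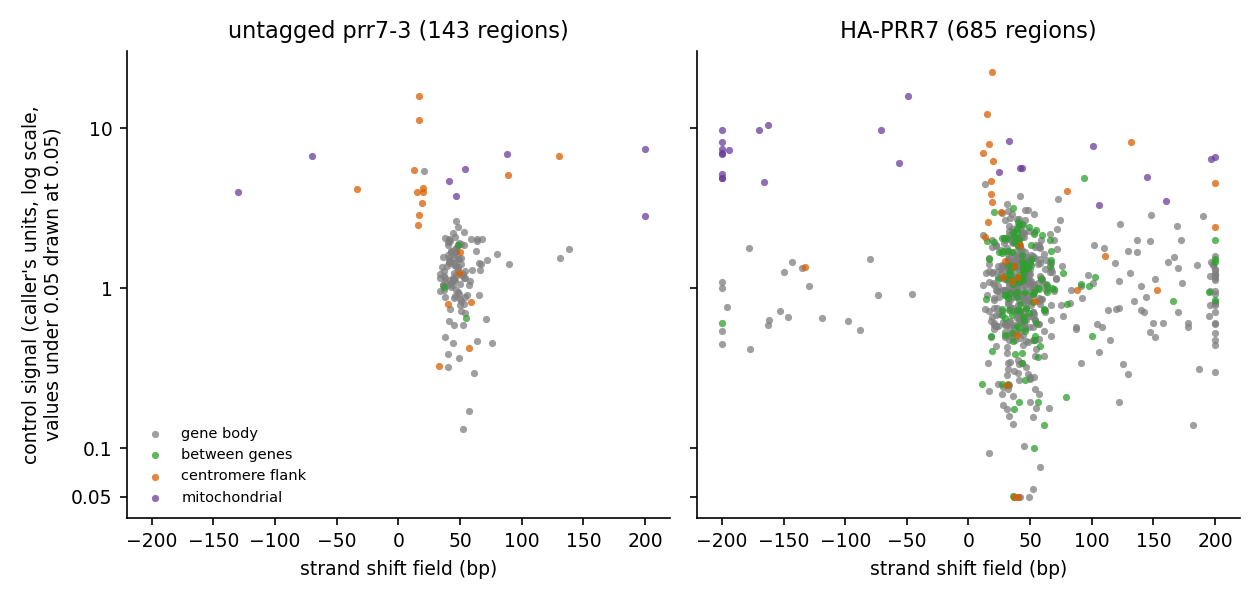
Strand shift field (x axis, bp) against control signal (y axis, log scale, caller's units) for untagged prr7-3 (left, 143 regions) and HA-PRR7 (right, 685 regions) of experiment 1, coloured by place. Most prr7-3 gene-body points form 1 cluster around the median of 47 bp, with a second group of flank points at 13 to 21 bp and a control above 2, while HA-PRR7 gene-body points also scatter out to -200 and 200 bp.

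The strongest untagged region was in the flank of chromosome 3. At 13591880 to 13592103 the IP signal was 62.9 and the control signal 16.0, which gives 3.94-fold, with 105 IP tags and 169 control tags. Beside it were regions at 13591640 to 13591822 (IP signal 14.1, 3.51-fold) and 13590173 to 13590308 (12.2, 2.88-fold). High IP thus stood with high control, and the fold stayed low.

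Chromosome 4 had a similar group. The region at 3953503 to 3953701 had an IP signal of 35.4 and a control of 11.2 (3.16-fold, 54 tags), and those at 3950970 to 3951335 (18.3, 2.71-fold), 4005889 to 4006092 (15.3, 2.80-fold) and 3983130 to 3983269 (12.3, 4.28-fold) lay near it. The last flank region of chromosome 4, at 4989926 to 4990043, was weaker in control (1.69) and reached 6.46-fold. On chromosome 5 the low folds were at 11731110 to 11731583 (2.72-fold, 55 tags), 11733874 to 11734050 (2.68-fold, the lowest of the list) and 11683010 to 11683166 (4.57-fold). On chromosome 1 the region in AT1G40104, at 15083535 to 15083861, had 31 tags and 3.05-fold enrichment. Chromosome 2 had 1 of the low kind, at 3607533 to 3607686 (3.34-fold).

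The remaining 5 flank regions resembled gene-body regions, with controls of 0.329 to 1.25 and folds from 9.34 to 11.5. These lay in ABCG38 (10.3-fold), in the pseudogenes AT5G33258 (10.3-fold), AT2G10530 (10.01-fold) and AT5G31702 (9.34-fold), and between genes on chromosome 2 at 5395103 to 5395235 (11.5-fold). In all, 25 of 143 untagged regions (17.5%) had a fold under 5, namely 12 in flanks, 8 mitochondrial and 5 in gene bodies. In HA-PRR7, 73 of 685 (10.7%) did.

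Mitochondrial regions had many tags and low folds, with a median IP tag count of 75.5 in prr7-3 regions and 65 in HA-PRR7 regions. The 8 prr7-3 regions (5.59% of the list, interval 2.45% to 10.7%) covered 8215 bp and held 909 IP tags and 4589 control tags. The 25 of HA-PRR7 (3.65%, interval 2.38% to 5.34%) covered 23396 bp with 2053 and 9589. Their median fold was 3.19 in prr7-3 (range 2.72 to 3.92) and 2.89 in HA-PRR7 (2.53 to 4.29). When only regions with at least 11 IP tags were counted, the order of the shares reversed, with 5.59% in prr7-3 and 8.65% in HA-PRR7.

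By position on the authors' mitochondrial sequence, the untagged region with the most tags was 361016 to 363415, with 303 tags and 3.19-fold enrichment. The next were 8959 to 10595 (197 tags, 3.00-fold), 189991 to 191625 (171 tags, 3.92-fold) and 198992 to 199992 (90 tags, 2.72-fold). The others were 40083 to 40971 (61 tags, 3.59-fold), 287635 to 287986 (35 tags, 3.19-fold), 208762 to 208906 (28 tags, 3.28-fold) and 28030 to 28185 (24 tags, 2.93-fold). The tag ratio was below 1 in 2 of the 8, at 40083 and 198992, although the signal at the maximum was above the control. Mitochondrial genes were not assigned, since the gene table's organelle sequences may differ from those of the files.

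Few regions were common to both IPs. Of 143 prr7-3 regions, 8 overlapped an HA-PRR7 region by at least 1 bp (5.59%, interval 2.45% to 10.7%), which were 8 of 685 HA-PRR7 regions (1.17%, interval 0.506% to 2.29%). By place they were 5 of the 18 flank regions, 2 of the 114 gene-body regions and 1 of the 8 mitochondrial regions. Of the 124 genes with an untagged maximum, 9 also held one of HA-PRR7, which is 0.0237% of all annotated genes. As a part of the 124 this is a larger share than the 1.39% of all annotated genes with an HA-PRR7 maximum. In 2 of the 9, AT4G25780 and AT3G06365, the regions overlapped. How many regions would overlap if placed evenly over the genome was not counted. The median distance from a nuclear prr7-3 maximum to the nearest HA-PRR7 maximum was 68.0 kb.

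At the common flank positions the IPs had like profiles. The chromosome 3 region at 13591880 had an IP signal of 62.9 over a control of 16.0 in prr7-3, against 79.3 over 22.5 in HA-PRR7, and the maxima were 24 bp apart. The chromosome 4 region at 3953503 had 35.4 over 11.2 in prr7-3, against 31.7 over 12.2 in HA-PRR7, with maxima 19 bp apart. The regions on chromosome 4 at 4005889 (2.80-fold in prr7-3, 2.57-fold in HA-PRR7), chromosome 3 at 13590173 (2.88-fold and 3.08-fold) and chromosome 5 at 11683010 (4.57-fold and 4.82-fold) were alike as well. In these 5 pairs the strand shift was between 13 and 21 bp in both lists.

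The other 3 common regions agreed less. AT3G06365 (prr7-3 region 14201629 to 14201791 on chromosome 3) had an IP signal of 16.3 in prr7-3 and 17.9 in HA-PRR7, but a control of 5.40 in prr7-3 and 1.55 in HA-PRR7, so the fold was 3.01 in prr7-3 and 11.5 in HA-PRR7. A neighbouring HA-PRR7 region in the same gene, 204 bp away, had no untagged counterpart. In AT4G25780 on chromosome 4 the overlap was 45 bp, the maxima were 66 bp apart, and the fold was 12.4 in prr7-3 and 5.69 in HA-PRR7. In the mitochondrial region at 361016 the maxima were 278 bp apart, and the fold was 3.19 in prr7-3 and 2.62 in HA-PRR7. IP tags were higher in prr7-3 in 8 of 8 pairs, the library with the greater background per window.

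**Figure D5:**
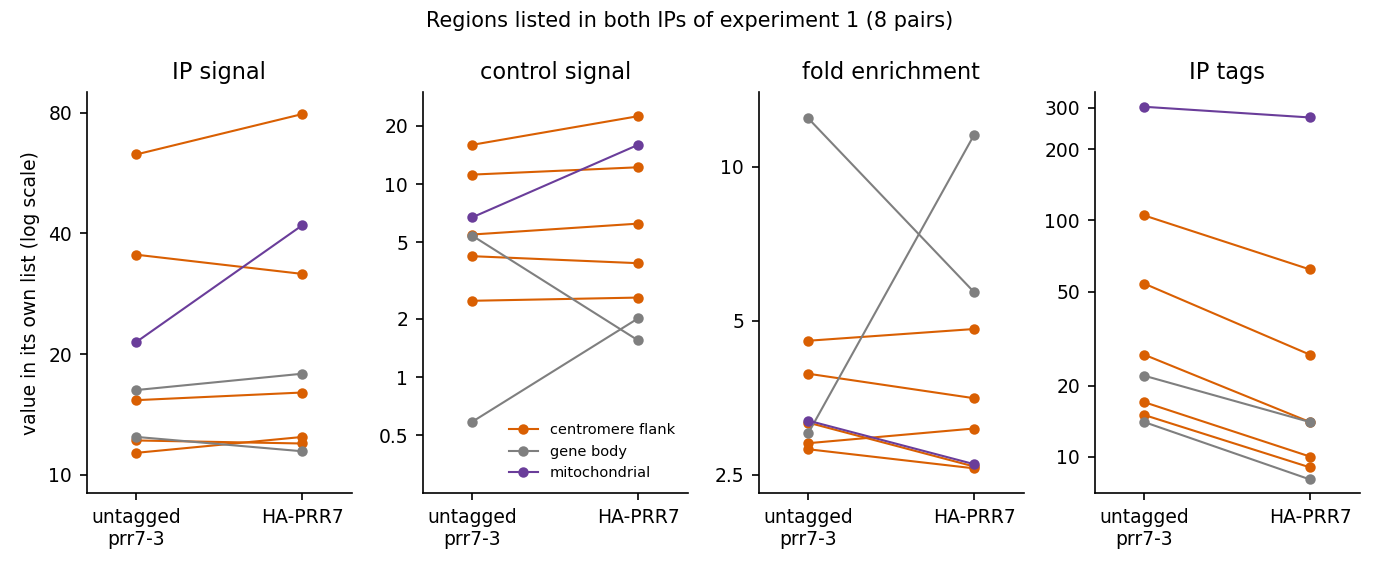
IP signal, control signal, fold enrichment and IP tags (y axes, log scales) of the 8 regions listed in both IPs of experiment 1, with untagged prr7-3 at the left and HA-PRR7 at the right of each line, coloured by place. Flank lines are close to level in fold (3.94 in prr7-3 against 3.53 in HA-PRR7 for the highest IP signal), the 2 gene-body lines slope in opposite directions (3.01 in prr7-3 against 11.5 in HA-PRR7 for AT3G06365, 12.4 against 5.69 for AT4G25780), and every IP tag line is higher at prr7-3.

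In 7 genes both lists had a maximum without overlapping regions. RBR1 held an untagged region on chromosome 3 at 3916225 to 3916360 (7.998-fold, 15 tags), and 3000 bp away an HA-PRR7 region (12.2-fold, 11 tags), where KC (16.7-fold) and TL (10.1-fold) also had one. No other gene with an untagged maximum held one in TL, and PRR7 was the only further one in KC. The others were SETH1, of glycosylphosphatidylinositol anchor synthesis (10.2-fold in prr7-3, 9.94-fold in HA-PRR7, 630 bp apart), RSH2, a guanosine tetraphosphate synthase gene (10.3-fold and 10.7-fold, 1543 bp apart), SPS2F, a sucrose-phosphate synthase gene (5.27-fold and 10.1-fold, 4089 bp apart), and the overlapping AT4G22410 and AT4G22415 (11.2-fold and 10.98-fold, 501 bp apart).

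PRR7 itself was the gene with most regions among these. In prr7-3 the region at 638755 to 639040 on chromosome 5 had 17 IP tags and 21 control tags, a control signal of 1.24 and 8.94-fold enrichment. HA-PRR7 had 3 regions in the gene, with control signals of 4.46, 2.89 and 2.54, control tags of 44, 67 and 35, and folds of 3.04, 3.85 and 4.14. The median nuclear region had 24 control tags in prr7-3 and 13 in HA-PRR7. In KC of experiment 2 the median nuclear region had 0 and the highest had 4, so 0 is a usual count in that list. In HA-PRR7, 11 of 660 nuclear regions had more control tags than the lowest of these 3, and 35 had a higher control signal. Both counts include the other PRR7 regions. None of the 3 overlapped the untagged region, the nearest maximum being 204 bp away, whereas the KC region of experiment 2 (151 IP tags and 0 control tags, 14.03-fold) did. The part of the control level in the lower HA-PRR7 folds at PRR7 was not tested.

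Against experiment 2, the untagged list shared 4 regions with KC (2.80% of 143 and 1.05% of 380) and 3 with TL (2.10% of 143 and 0.845% of 355). With KC these were 2 mitochondrial regions, the chromosome 4 flank region at 3950970 (2.71-fold in prr7-3, 11.03-fold in KC with 2 control tags) and PRR7. With TL they were 2 mitochondrial regions and the chromosome 5 flank region at 11731110 (2.72-fold in prr7-3, 2.52-fold in TL). The lists were made separately, and whether their folds are on 1 scale was not tested.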

How the data were processed

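ChIP-seq region lists of 3 of the 6 samples were used. The submitters' processing notes name Bowtie and the build TAIR10. They, the labels and the files name no peak caller, settings or control library. Each list belongs to 1 sample. The deposited lists give the authors' IP and control signal, the signal ratio as a fold enrichment, whole-number tag counts, strand scores and -log10 q values, per the field names in the files. Depth was inferred from the tag ratio field, since a list of regions does not give a library's total.

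The maximum of each region was placed relative to genes of the TAIR10.1 gene table, taking nuclear coordinates as equal to TAIR10; no coordinate of that table is printed. Overlap needed 1 bp. Python 3.11.15, pandas 2.3.3 and scipy 1.17.1 were used, and placement and overlap were checked on simulated regions. No p-value was computed, with 1 IP per side. Named were regions common to both lists, the 10 highest and 5 lowest by fold, the 5 with most tags, organelle, flank and between-gene regions, genes in both lists and list members; other genes are examples. Thresholds on signal, tags and strand fields were set after the values were seen, and members and lists were chosen with earlier results of these data known.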

Additional observations from a re-analysis of the deposited data

How the results depend on the processing

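Of 51 values for 12 results under other settings, 40 stayed within the interval of a share or within 1.5 times, with the same order of the lists. The floor of 11 IP tags removes no prr7-3 region, and the KC and TL settings leave the prr7-3 list as it was. Under these settings prr7-3 shares, medians and gene counts could not change, and at most the order of the lists could. The gene-body share of prr7-3 was 95.8% in the higher-fold part of each list (HA-PRR7 77.6%), 97.4% without flanks (79.2%) and 80% counting protein-coding genes alone (69.5%). The higher-fold part gave a flank share of 6.94% (2.04%), an organelle share of 0% in both lists, 72 genes with an untagged region, and 0 regions common to both lists. Mitochondrial folds reach only 3.92 in prr7-3 and 4.29 in HA-PRR7. Of the 8 common regions, 7 rank 122 to 139 of 143 by fold in prr7-3, and the other ranks 590 of 685 in HA-PRR7. With at least 11 IP tags the organelle share reversed in order, 5.59% against 8.65%, and 5 regions were common. Set against KC or TL, without replicate 1 of HA-PRR7, common regions numbered 3 to 4. The prr7-3 gene-body share of 88.1%, fixed in that setting, stood beside 37.6% in KC and 38.4% in TL. No paired analysis was possible because 1 IP stands on each side and no result comes from a model over replicates. Depth limits both lists: the thinnest region had 11 IP tags in prr7-3, against 6 in HA-PRR7.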
